A study of Mus musculus with 2 samples.

Results

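The cells described here are 270 cells of the mouse ciliary body that carried contractile genes, the stromal gene Dcn and at least 1 UMI (1 counted RNA molecule) of Lmx1b, Chodl or Nkain3, out of 9331 cells in all. They were chosen on raw UMIs. Of the barcodes that had 500 or more detected genes and no more than 30% of their UMIs from mitochondrial genes, a cell was a member when Acta2 and Tagln together reached 3 UMIs, Lmx1b, Chodl and Nkain3 together reached 1 and Dcn reached 1, while Rgs5 stayed at 1 or below, Chil1 at 2 or below and Pecam1 and Cdh5 at 0. The mice behind both libraries were wild type, of the C57BL/6 strain, and 35 days old (postnatal day 35); the labels name no treatment, mutation or transgene. Each was a pool of dissected eyes (3 sets for library 1, and 3 or 4 sets for library 2, for which the labels disagree), and the dissected tissue is labelled as ciliary epithelium, although Dcn, rod and macrophage transcripts show that stroma, retina and immune cells were in the suspension.

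The anterior uvea and the drainage angle of the eye hold several contractile cells. Ciliary muscle is a smooth muscle that acts on the lens suspension and on aqueous outflow, and it uses desmin and smooth muscle myosin. The trabecular meshwork is a sieve of matrix-covered cells through which aqueous humour leaves the eye, and its cells also contract through actin and non-muscle myosin. Pericytes and vascular smooth muscle cells wrap the uveal vessels. Lmx1b encodes a LIM homeodomain transcription factor needed for the anterior segment and mutated in nail-patella syndrome, which can include glaucoma. Chodl encodes the membrane lectin chondrolectin, and Nkain3 a small membrane protein of a family that binds the sodium pump. Foxc1, a forkhead factor mutated in Axenfeld-Rieger anterior segment dysgenesis, was listed as a marker but was not part of the selection.

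Members were 199 of 3865 cells in library 1 (5.15%, exact 95% interval 4.47% to 5.89%) and 71 of 5466 cells in library 2 (1.30%, 1.02% to 1.64%); these intervals and the others below cover counting error only. The share is taken over all filtered cells, of which rods alone were 440 in library 1 and 2442 in library 2. What made the share differ between the libraries was not tested. Members held 1432725 UMIs in library 1 and 728598 in library 2, with a median of 4996 and 6523 UMIs and 2155 and 2551 detected genes per cell, against medians of 4128 and 2968 UMIs over all cells. The libraries shared 11 cell barcodes, and 1 member's barcode occurred in both libraries, but no barcode was a member in both.

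The genes of the selection are given as a description only, since they chose the cells. On GRCm38 with GENCODE M21, Acta2 lies at chr19:34241090-34255590 and Tagln at chr9:45929619-45936058, Lmx1b at chr2:33560965-33640511, Nkain3 at chr4:20118874-20778866 (all on the minus strand) and Chodl at chr16:78930948-78951733 (plus strand). Levels are given as CPM, the UMIs of a gene per 1000000 UMIs of the summed cells. Acta2, smooth muscle actin, stood at 2323 CPM in library 1 and 1150 in library 2, and Tagln, the actin-binding protein transgelin, at 4838 and 3069. Per cell, the sum of Acta2 and Tagln had a median of 25 UMIs in library 1 (3 to 865) and 17 in library 2 (3 to 384), so the cells ran from the edge of the selection to far above it. Lmx1b stood at 182 and 198 CPM, Chodl at 195 and 157, and Nkain3 at 110.3 and 68.6. The 3 genes seldom met in a cell at this depth. Lmx1b was seen in 128 members of library 1 and 57 of library 2, Chodl in 97 and 38, and Nkain3 in 85 and 30. All 3 were seen together in 37 of the 270 cells (13.7%), at least 2 of them in 128 (47.4%), and Lmx1b alone in 73 (27.0%). Just inside the selection, the 72 cells of library 1 with exactly 1 UMI of the 3 genes had 526 CPM of Lypd1, and the 111 cells just outside, with 0, had 173. In library 2 the same values were 179 in 20 cells just inside and 39.6 in 35 cells just outside.

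There were 4 other classes, each also set by raw UMIs, which were used to ask whether the members resemble ciliary muscle, meshwork or other mesenchyme. Chil1-rich cells (301 and 132 cells) had at least 3 UMIs of Chil1 with Dcn and carried abundant Myoc and Angptl7, which mark the meshwork. Not every meshwork gene went that way: of 20 listed, 7 were called higher in these cells than in the members and 5 lower. Their 18 genes of corneal stroma and sclera summed to 13530 and 14580 CPM, against 12810 and 9851 in the Dcn-rich fibroblasts below. Rgs5-rich cells (137 and 109 cells) were set up as vascular mural cells, but the data went against that name. They held 3612 and 3748 CPM of Myoc and much Dcn. A stricter class of Rgs5-rich cells with no Chil1 and at most 1 Dcn UMI (34 and 26 cells) was therefore added after the data were seen. Dcn-rich fibroblasts (369 and 201 cells) had no Chil1, Rgs5, Lmx1b, Chodl or Nkain3 and at most 1 UMI of Acta2 and Tagln. The last class was the same selection as the members but with 0 UMIs of Lmx1b, Chodl and Nkain3 (111 and 35 cells). UMIs were summed per class and library, and edgeR's quasi-likelihood test compared 14 summed profiles (7 classes, endothelial and pigmented contractile cells included, in 2 libraries) over 10789 genes with the library as a block. A gene was called when its p, adjusted by Benjamini-Hochberg over all genes tested, was under 0.05 and its log2 fold change was 1 or more in size. The genes of every selection were left out of the test. The other genes are separate measurements of the same cells. A gene that goes along with Acta2 and Tagln, Dcn, Rgs5 or Chil1 is still not independent of how the classes were set. There were 2 libraries, each 1 pool, so the p-values measure the spread between these pools and class sums and nothing about single animals. All comparisons share the members' sums. The library term carried much of the precision: of 218 calls of named genes, 172 were lost in a fit without it, none with a change of direction.

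**Figure D1:**
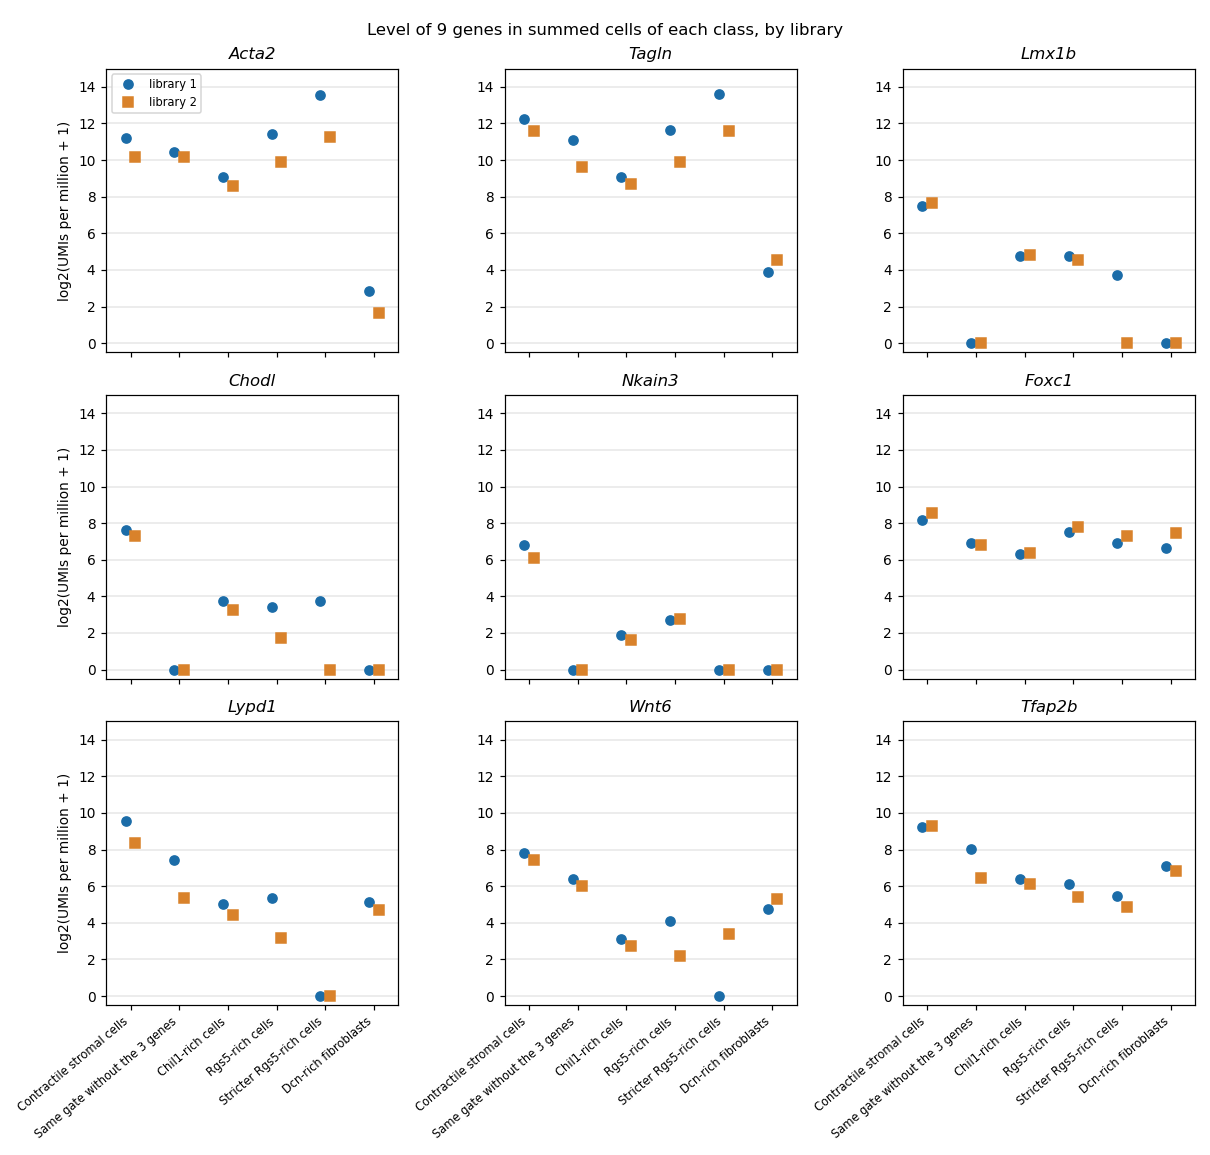
Level of 9 genes in the summed cells of each class, as log2(CPM + 1), with circles for library 1 and squares for library 2. Acta2, Tagln, Lmx1b, Chodl and Nkain3 were used to set classes; Lypd1 stood at 743 and 329 CPM in contractile stromal cells and at 0 UMIs in stricter Rgs5-rich cells, and Foxc1, Wnt6 and Tfap2b were highest in contractile stromal cells among the classes drawn.

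The members differed from the Chil1-rich cells, the Rgs5-rich cells and the Dcn-rich fibroblasts alike in 71 genes that were higher (0.658% of those tested) and 64 that were lower (0.593%). Lypd1 (chr1:125867622-125913101, minus strand), a LY6 and PLAUR domain protein that binds nicotinic acetylcholine receptors, led the higher genes. It stood at 743 and 329 CPM in the members, against 31.8 and 20.5 in Chil1-rich cells, 39.3 and 8.10 in Rgs5-rich cells and 34.1 and 24.8 in Dcn-rich fibroblasts. Both libraries of the members lay above every other class sum. The log2 fold changes were 4.08 ± 0.45, 4.54 ± 0.48 and 4.06 ± 0.46 (SE; adjusted p = 0.000469, 0.000616 and 0.0005 by edgeR's quasi-likelihood test). With each cell thinned to 1500 UMIs, Lypd1 was seen in 55.3% and 37.1% of members, against 1.01% and 0.794% of Chil1-rich cells, 4.01% and 3.01% of Dcn-rich fibroblasts and, as a background of free RNA, 0% and 0.574% of rods. Unthinned, the share was 74.9% and 60.6% of members, with 0.455% and 1.76% of rods and 0.315% and 0% of macrophages, at median depths of 4996 and 6523 UMIs in members, 1162 and 2449 in rods and 4971.5 and 5638 in macrophages.

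The 9 genes that followed Lypd1, by the smallest of the 3 fold changes, were of mixed function. Gpr137b, a lysosomal membrane protein, stood at 627 and 336 CPM in members, against 50.0 and 39.5 in Chil1-rich cells, 76.4 and 26.6 in Rgs5-rich cells and 35.2 and 52.8 in Dcn-rich fibroblasts. Its log2 fold changes were 3.15, 3.24 and 3.30, each with an SE of 0.44 or 0.45. Among adhesion genes, the desmosomal cadherin Dsc2 stood at 57.9 and 32.9 CPM in members and at no more than 2.82 in any of the 3 classes. Cdh23, a cadherin known from the tip links of hair cells, stood at 53.1 and 72.7 in members and at no more than 6.35 in the 3 classes. Rspo2, a secreted amplifier of Wnt signalling, stood at 106 and 90.6, against 20.9 and 4.24 in Chil1-rich cells, 16.4 and 5.78 in Rgs5-rich cells and 12.6 and 17.2 in Dcn-rich fibroblasts. Barhl1, a homeobox factor known from neurons and the inner ear, stood at 81.0 and 32.9 in members and had no UMI in library 2 of any of the 3 classes. It was seen in 21.6% and 19.7% of members, against 0% and 0.0819% of rods, with 12.9% and 16.7% of its UMIs in 1 cell. The galectin Lgals7, the sphingolipid enzyme subunit Sptssb, the potassium channel Kcnk13 and the glucuronyltransferase B3gat2 completed the 10. Only Lypd1 and Cdh23 of these 10 were also called higher than in cells that met the same selection without Lmx1b, Chodl or Nkain3. Cdh23 had a log2 fold change of 2.61 ± 0.46 there (SE, adjusted p = 0.0435 by edgeR's quasi-likelihood test).

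**Figure D2:**
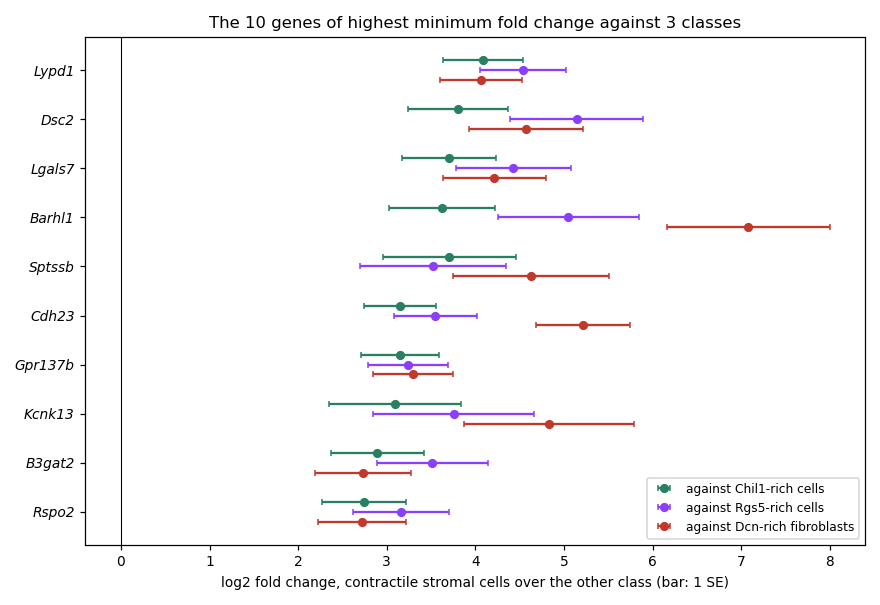
Log2 fold change of contractile stromal cells over Chil1-rich cells, Rgs5-rich cells and Dcn-rich fibroblasts for the 10 genes whose smallest fold change against the 3 classes was highest, with bars of 1 SE from edgeR. Lypd1 lies near 4 in all 3 comparisons with narrow bars. The points of Barhl1 and Kcnk13 against Dcn-rich fibroblasts rest on 1 and 2 UMIs in those fibroblasts, so their size is uncertain.

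The first question was whether the members carry the apparatus of smooth or ciliary muscle. Of 15 genes of that apparatus, 8 passed the filter on low counts. Against Chil1-rich cells 3 were called higher (Des, Cnn1 and Lmod1) and none lower, beside 216 genes called higher in all (2.00% of those tested) and 339 lower (3.14%). Against Dcn-rich fibroblasts, a class chosen for low Acta2 and Tagln, 3 were higher (Cnn1, Myh11 and Lmod1) and none lower. In all, 198 genes were higher (1.84%) and 284 lower (2.63%) in that comparison. The median log2 fold change of the 8 genes was 1.72 and 2.70 in these comparisons, beside −0.03 and 0.01 for all genes. Against Rgs5-rich cells no gene of the list was called (median −0.42), beside 143 higher (1.33%) and 190 lower (1.76%) in all. Against the stricter Rgs5-rich cells none was higher and 3 were lower (Synpo2, Myh11 and Des; median −1.82), beside 177 higher (1.72%) and 188 lower (1.83%) in all. In that comparison the median of all genes lay at 0.16, and changes are to be read against that shift.

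Myh11, the smooth muscle myosin heavy chain, stood at 92.1 and 56.3 CPM in members, against 1321 and 384 in stricter Rgs5-rich cells (log2 fold change −3.45 ± 0.68, SE; adjusted p = 0.0142) and 0 and 7.54 in Dcn-rich fibroblasts (4.70 ± 0.87; adjusted p = 0.00892). The members lay between these classes in both libraries. Des, the muscle intermediate filament desmin, stood at 46.1 and 30.2 in members, against 408 and 178 in stricter Rgs5-rich cells (−2.84 ± 0.51; adjusted p = 0.0115) and 35.2 and 38.8 in Dcn-rich fibroblasts (−0.02 ± 0.46; adjusted p = 0.996). The members' values lay on either side of those of the fibroblasts, a class chosen for lacking Acta2 and Tagln, and the difference was not called. Cnn1, the actin-binding protein calponin, stood at 67.0 and 105.7 in members, against 0 and 0 UMIs in Dcn-rich fibroblasts, which with a floor of 3 UMIs per library makes it at least 42.5-fold higher in library 1 and at least 32.7-fold higher in library 2. Lmod1, the smooth muscle actin nucleator leiomodin, stood at 59.3 and 52.2, against 8.53 and 9.18 in Chil1-rich cells (2.44 ± 0.38; adjusted p = 0.00392) and 2.63 and 1.08 in Dcn-rich fibroblasts (4.64 ± 0.50; adjusted p = 0.000501).

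The muscle transcripts were not spread evenly over the members. In a clustering of all cells that left out the selection genes, 11 members (9 in library 1 and 2 in library 2) fell into a cluster of 84 cells. Of these 84 cells, 53 were Rgs5-rich cells. The cluster was led by Myl9, Tpm2 and Myh11, and the mural genes Higd1b, Ndufa4l2 and Gja4 were also among its leading genes. The set depended on the clustering. At a finer resolution of 2, a cluster of 101 cells with 36 and 19 Rgs5-rich cells held 17 members (15 and 2). In library 1, 7 of the 14 members with 3 or more Myh11 UMIs lay in the cluster of 84 cells. In library 2, 2 of the 4 such members did. The 11 cells are described without a test, because muscle transcripts were among those that placed them in the cluster of 84. In library 1 those 9 cells had 1659 CPM of Myh11, against 30.5 in the 190 other members, and they gave 68.2% of all Myh11 UMIs of the members and 74.2% of those of Des. Des stood at 903 in the 9 cells and 12.3 in the other 190. In library 2 the pair of cells gave 29.3% of the Myh11 UMIs and 9.09% of the Des UMIs, and the other 69 members had 27.6 CPM of Des. The pair was shallow, at a median of 2174 UMIs per cell against 6812 in the other 69 members. Cnn1 stood at 1143 in the 9 cells and 24.7 in the other 190, and Actg2, the smooth muscle gamma actin, at 701 in the 9 cells (8 of them) and 0.725 in the other 190 (1 of them); in library 2 it was at 0 UMIs in the pair. Casq2, a calcium store protein of muscle, was seen in 6 of the 9 cells and in 1 of the other 190. The 15 muscle genes summed to 5697 in the 9 cells, against 184 in the other 190. In library 2 those genes summed to 4599 in the pair of cells, against 337 in the other 69 members, with Myh11 at 2759 in the pair and 40.0 in the other 69. Muscle transcripts of library 2 also sat in 4 members of a cluster that held most Chil1-rich cells, with 410.5 CPM of Myh11, 205 of Des and 616 of Cnn1 beside 3255 of Myoc. The 14 members of library 1 in that cluster had 0 UMIs of Myh11 and Des.

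In their mural genes these 11 cells lay far below the stricter Rgs5-rich cells. The 12 mural genes summed to 442.5 CPM in the 9 cells of library 1 and 229.9 in the pair of library 2, against 6698 and 5310 in stricter Rgs5-rich cells. In the other members the list summed to 263 and 297. Higd1b, Kcnj8 and Notch3, which mark pericytes, were at 0 UMIs in all 11, and the selection itself held Rgs5 at 1 or below. Other genes of the list were higher in the 9 cells than in the other 190 members: Cspg4 stood at 129 and 10.2, Mcam at 92.2 and 2.18, and Gja4 at 73.7 and 25.4. Chodl was seen in all 9 and in both cells of the pair (608 and 460 CPM, against 179 and 155 in the other members). Chodl is a gene of the selection, and a member with no Lmx1b or Nkain3 UMI had to hold it, so these values only describe the cells. Lypd1, the leading gene of the members as a whole, was at 0 UMIs in all 11, against 772 and 331 in the others. Tfap2b stood at 111 and 0 in the 11 cells, against 607 and 621 in the others. In the pair of library 2, 1 UMI made 229.9 CPM, so the pair's CPM values rest on few UMIs and its zeros carry little weight. The muscarinic receptor Chrm3, through which ciliary muscle is stimulated, had 3 UMIs in the members as a whole, all of them in 3 of these 9 cells. Lmx1b was seen in 3 of the 9 cells and in neither of the pair, against 125 of the other 190 and 57 of the other 69 members.

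**Figure D3:**
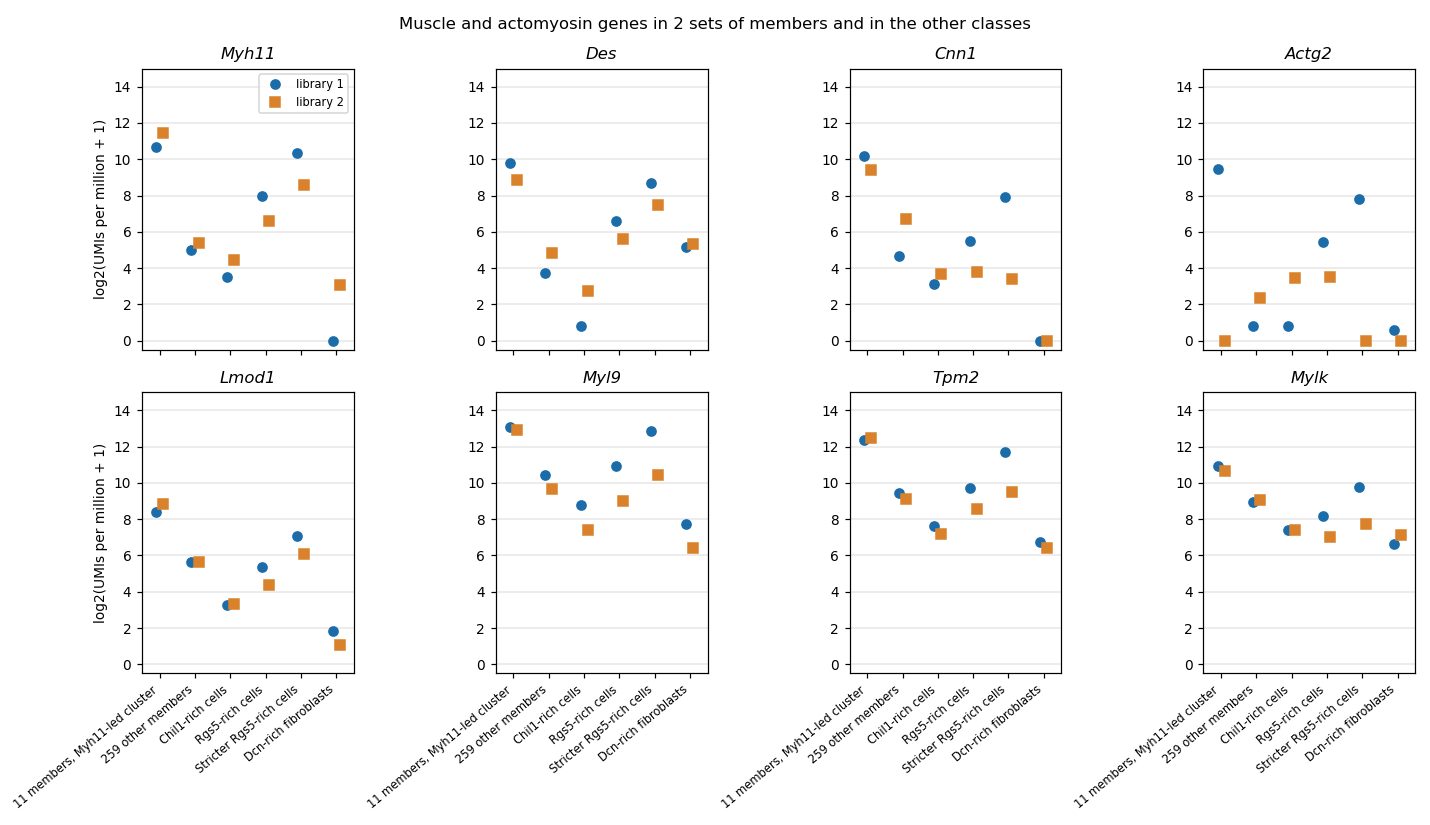
Level of 8 muscle and actomyosin genes, as log2(CPM + 1), in the 11 members of the Myh11-led cluster, the 259 other members and 4 other classes, with circles for library 1 and squares for library 2. In library 1 Myh11 stood at 1659 CPM in the 9 members of that cluster and at 30.5 in the 190 others, while Myl9, Tpm2 and Mylk were well above 0 in both sets.

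Without the 11 cells, an alternative chosen after the data were seen, 3 muscle genes were still called higher than in Dcn-rich fibroblasts (Cnn1, Lmod1 and Myh11), with Myh11 at a log2 fold change of 3.52 (adjusted p = 0.0488). In that fit 162 of all 10782 genes were higher and 304 lower than in those fibroblasts. Against Chil1-rich cells only Lmod1 kept its call (2.25; adjusted p = 0.0087), and Des (2.54; adjusted p = 0.111) and Cnn1 (2.39; adjusted p = 0.149) lost it. Against Rgs5-rich cells Myh11 was then called lower (−2.50; adjusted p = 0.0434). With each cell thinned to 1500 UMIs, Myh11 was seen in 6.60% and 10.0% of members, against 12.1% and 10.0% of Rgs5-rich cells, 0.676% and 0.794% of Chil1-rich cells and 0.617% and 0.637% of rods.

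The more general actomyosin genes are also used by non-muscle contractile cells. Of 32 such genes, all tested in these comparisons, 11 were called higher and 1 lower than in Dcn-rich fibroblasts, and 6 were higher and 1 lower than in Chil1-rich cells. The medians were 1.06 and 0.62. Dcn-rich fibroblasts were chosen for low Acta2 and Tagln, so genes that go along with these are not independent of that choice. Against Rgs5-rich cells 1 was higher and 3 lower (median −0.003), and against the stricter class 1 was higher and 5 lower of 31 tested (median −0.80). Over all genes the shares called higher and lower were 1.84% and 2.63% against Dcn-rich fibroblasts and 2.00% and 3.14% against Chil1-rich cells. They were 1.33% and 1.76% against Rgs5-rich cells and 1.72% and 1.83% against the stricter class. Without the 11 cells of the Myh11-led cluster the counts were 9 higher and 1 lower against Dcn-rich fibroblasts and 3 higher and 1 lower against Chil1-rich cells. Of all 10782 genes of that fit, 162 were higher and 304 lower than in Dcn-rich fibroblasts, and 207 and 328 than in Chil1-rich cells. In the fit without the library term no gene of the list was called in any comparison. Myl9, the regulatory light chain, stood at 1680 and 845.5 CPM, against 213 and 84.0 in Dcn-rich fibroblasts (log2 fold change 3.06 ± 0.60, SE; adjusted p = 0.0123). Mylk, the kinase that phosphorylates that chain, stood at 558 and 543.5, against 168 and 169 in Chil1-rich cells (1.49 ± 0.35; adjusted p = 0.0296) and 96.6 and 137 in Dcn-rich fibroblasts (2.18 ± 0.37; adjusted p = 0.00505). Tpm2, a tropomyosin, stood at 872 and 587, against 106 and 84.0 in Dcn-rich fibroblasts (2.85 ± 0.53; adjusted p = 0.00913).

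Myh10, a non-muscle myosin heavy chain, was called higher than in the Chil1-rich, Rgs5-rich, stricter Rgs5-rich and Dcn-rich fibroblast classes; without the 11 cells the call against Rgs5-rich cells was lost (log2 fold change 1.04; adjusted p = 0.056). It stood at 112 and 122 CPM in members, against 37.2 and 37.4 in Chil1-rich cells (log2 fold change 1.42 ± 0.26; adjusted p = 0.00747), 61.1 and 45.1 in Rgs5-rich cells (1.10; adjusted p = 0.042), 30.4 and 28.1 in the stricter class (2.09; adjusted p = 0.0155) and 42.5 and 50.6 in Dcn-rich fibroblasts (1.27; adjusted p = 0.0153). Vcl, the adhesion protein vinculin, stood at 90.7 and 107 in members and 22.1 and 35.6 in Dcn-rich fibroblasts (1.75 ± 0.43; adjusted p = 0.0402), a call that was lost without the 11 cells (1.60; adjusted p = 0.0608). Fhl2, a LIM protein that interacts with the contractile gene program, went the other way, at 17.5 and 19.2 in members and 71.4 and 78.7 in Dcn-rich fibroblasts (−2.15 ± 0.41; adjusted p = 0.0141).

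Many contractile genes share a serum response factor site, the CArG box, so the RefSeq promoter windows of GRCm38.p6 (250 bases before to 50 after each start site) were searched for its strict form, which reads the same on both strands. It was found in 6 of 28 actomyosin genes with a window (21.4%) and in 1 of 12 muscle apparatus genes (8.33%), beside 488 of 27025 genes in all (1.81%). The 7 genes were Ldb3, Myl9, Myl6, Cnn2, Vcl, Srf and Fhl2, of which Myl9 and Vcl were called higher and Fhl2 lower than in Dcn-rich fibroblasts. Of the 6 marker genes, 4 had a window and none of these windows held the box. Tagln and Nkain3 had no window and were not searched. The 250 bases upstream of Myl9 (chr2:156775214-156775463, plus strand) and Vcl (chr14:20929148-20929397, plus strand) are shown because both hold the box and both were called; capitals mark the box, which begins 161 bases before the start site of Myl9 and 227 bases before that of Vcl. A match describes the letters only and says nothing about binding.
Myl9: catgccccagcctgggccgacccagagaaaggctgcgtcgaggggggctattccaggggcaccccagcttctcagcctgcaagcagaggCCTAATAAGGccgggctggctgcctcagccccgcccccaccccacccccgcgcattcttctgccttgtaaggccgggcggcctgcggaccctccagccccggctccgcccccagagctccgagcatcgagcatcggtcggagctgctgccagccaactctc
Vcl: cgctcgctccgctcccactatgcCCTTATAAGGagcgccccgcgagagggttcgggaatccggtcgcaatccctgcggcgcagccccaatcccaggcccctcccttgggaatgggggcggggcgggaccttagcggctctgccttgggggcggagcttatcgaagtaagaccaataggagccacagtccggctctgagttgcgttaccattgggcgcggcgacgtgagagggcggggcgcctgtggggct

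Receptors and ion handling genes of muscle were called in both directions. Of 34 genes, 26 were tested; 4 were higher and 1 lower than in Chil1-rich cells, 1 higher and 4 lower than in Rgs5-rich cells, and 2 higher and 1 lower than in Dcn-rich fibroblasts. The medians were 0.33, −0.05 and 0.83, beside −0.03, 0.00 and 0.01 for all genes. All genes were called higher and lower at 2.00% and 3.14%, 1.33% and 1.76%, and 1.84% and 2.63% in the same order. Adra1b, an alpha-1 adrenergic receptor, was higher than in all 3 classes: it stood at 45.4 and 52.2 CPM in members, against 13.2 and 7.06 in Chil1-rich cells (log2 fold change 2.01 ± 0.44; adjusted p = 0.0202), 8.74 and 3.47 in Rgs5-rich cells (2.94; adjusted p = 0.0118) and 9.45 and 9.70 in Dcn-rich fibroblasts (2.29; adjusted p = 0.0156). Pde5a, the phosphodiesterase that ends cyclic GMP signals in smooth muscle, stood at 232 and 156.5, against 36.4 and 36.0 in Chil1-rich cells (2.19 ± 0.46; adjusted p = 0.0158). The guanylate cyclase subunits Gucy1a3 and Gucy1b3, which receive nitric oxide, and the endothelin receptor Ednra were lower than in Rgs5-rich cells, with Gucy1a3 at 27.2 and 17.8 in members and 128 and 117 in Rgs5-rich cells (−2.43 ± 0.31; adjusted p = 0.00168). The adenosine receptor Adora1 stood at 5.58 and 4.12, against 60.5 and 46.6 in Chil1-rich cells (−3.62 ± 0.50; adjusted p = 0.00164).

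The second question was whether the members carry the genes of the trabecular meshwork, and the 20 genes of that list split. Against Chil1-rich cells 5 were higher (Tfap2b, Rspo2, Ecm1, Cyp1b1 and Foxc1) and 7 lower (Angptl7, Nell2, Myoc, Sparc, Crym, Mgp and Timp3), with a median of −0.51. Against Dcn-rich fibroblasts 2 were higher and 4 lower (median −0.84), and against the stricter Rgs5-rich cells 8 were higher and none lower (median 1.41). The stricter class holds no Chil1 and at most 1 Dcn UMI per cell by its construction. Genes that go along with Dcn or Chil1 are therefore not independent of that choice. Among all genes, 2.00% were higher and 3.14% lower than in Chil1-rich cells, and 1.84% and 2.63% than in Dcn-rich fibroblasts. The shares against the stricter class were 1.72% and 1.83%. Myoc, which encodes myocilin and is mutated in human glaucoma, stood at 130.5 and 250 CPM in members, against 3161 and 3258 in Chil1-rich cells (log2 fold change −4.30 ± 0.42, SE; adjusted p = 0.000304) and 231 and 213 in Dcn-rich fibroblasts (−0.30 ± 0.37; adjusted p = 0.787). It was seen in 18.1% and 28.2% of members, against 1.59% and 4.01% of rods. Angptl7, a secreted meshwork protein, stood at 8.38 and 2.75 in members, with 91.7% of its UMIs of library 1 in 1 cell, against 645.5 and 399.5 in Chil1-rich cells (−6.79 ± 0.61; adjusted p = 0.000304). Sparc, a matricellular protein, stood at 2746 and 1657 in members and 17840 and 11000 in Chil1-rich cells (−2.93 ± 0.58; adjusted p = 0.0116).

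Of the 5 genes that were higher than in Chil1-rich cells, Tfap2b and Foxc1 encode transcription factors, Rspo2 and Ecm1 secreted proteins and Cyp1b1 an enzyme. Tfap2b (chr1:19208914-19238576, plus strand), an AP-2 factor required for the mouse meshwork and corneal endothelium, stood at 588 and 618 CPM in members, against 84.1 and 68.5 in Chil1-rich cells (2.78 ± 0.63; adjusted p = 0.0253). Foxc1 (chr13:31806633-31812476, plus strand) stood at 289 and 369, against 77.2 and 81.2 in Chil1-rich cells (1.82 ± 0.27; adjusted p = 0.00291) and 98.2 and 174.5 in Dcn-rich fibroblasts (1.24; adjusted p = 0.0205), while its difference from Rgs5-rich cells was not called (0.67 ± 0.26; adjusted p = 0.251). Cyp1b1, an enzyme mutated in congenital glaucoma, stood at 67.7 and 92.0, against 14.3 and 24.0 in Chil1-rich cells (1.86 ± 0.37; adjusted p = 0.0121). With each cell thinned to 1500 UMIs, Tfap2b was seen in 49.2% and 40.0% of members and 7.43% and 7.94% of Chil1-rich cells, against 2.47% and 5.48% of rods.

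Among 34 transcription factors of the periocular mesenchyme, of which 22 were tested, 6 were higher and 3 lower than in Chil1-rich cells, 2 higher and 3 lower than in Rgs5-rich cells, and 4 higher and 5 lower than in Dcn-rich fibroblasts. Their medians were −0.14, 0.34 and 0.39. The shares of all genes called higher and lower were 2.00% and 3.14%, 1.33% and 1.76%, and 1.84% and 2.63% in the same order. Eya2, a transcriptional cofactor and phosphatase, was called higher in all 3 comparisons, at 114.5 and 123.5 CPM in members against 32.2 and 41.6 in Chil1-rich cells (1.48 ± 0.23; adjusted p = 0.00303). Nr2f2, an orphan nuclear receptor, stood at 269 and 237, against 48.1 and 43.8 in Chil1-rich cells (2.24 ± 0.31; adjusted p = 0.00165). Meox1 and Ebf1 were lower than in all 3 classes. Ebf1, a factor of fibroblasts and pericytes, stood at 31.4 and 42.6 in members, against 141 and 72.0 in Chil1-rich cells (−1.70 ± 0.44; adjusted p = 0.0425), 284 and 202 in Rgs5-rich cells (−2.75; adjusted p = 0.00564) and 411 and 227 in Dcn-rich fibroblasts (−3.14; adjusted p = 0.00198).

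**Figure D4:**
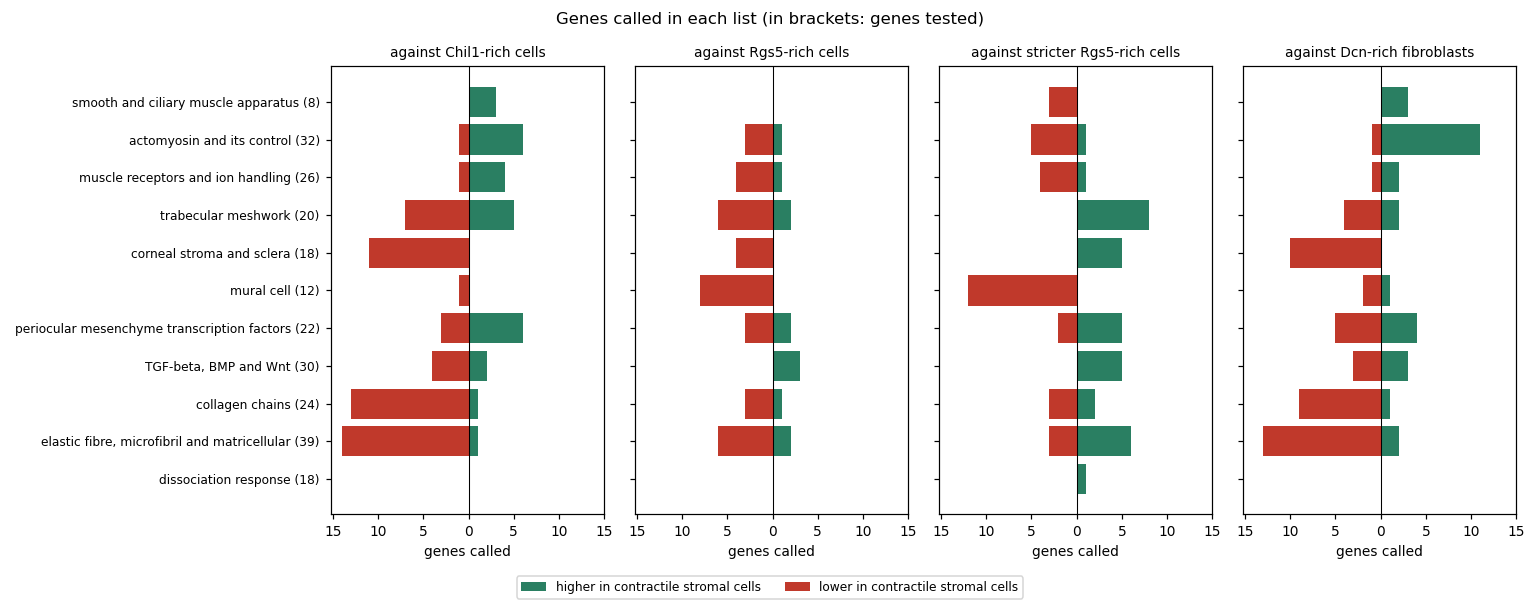
Number of genes of each list called higher (bars to the right) or lower (bars to the left) in contractile stromal cells against Chil1-rich cells, Rgs5-rich cells, stricter Rgs5-rich cells and Dcn-rich fibroblasts, with the number tested in brackets. Collagen chains were called lower 13 times against Chil1-rich cells and 9 times against Dcn-rich fibroblasts, actomyosin genes were called higher 11 times against Dcn-rich fibroblasts, and all 12 mural genes were lower than in stricter Rgs5-rich cells. The stricter class was chosen for Rgs5, for no Chil1 and for low Dcn. Among all genes 3.14%, 2.63% and 1.83% were lower than in Chil1-rich cells, Dcn-rich fibroblasts and stricter Rgs5-rich cells, and 1.84% were higher than in Dcn-rich fibroblasts.

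The third question was how the members compare with other mesenchyme. Mural genes were low: all 12 were called lower than in stricter Rgs5-rich cells, and 8 were lower and none higher than in Rgs5-rich cells. Both of those classes needed at least 3 UMIs of Rgs5, and members held at most 1. Mural genes that go along with Rgs5 are therefore not independent of that choice. The list summed to 269 and 297 CPM in members, against 418 and 410 in Chil1-rich cells, 386 and 472 in Dcn-rich fibroblasts and 6698 and 5310 in stricter Rgs5-rich cells. Higd1b and Abcc9 were at 0 UMIs in both libraries of members, which with a floor of 3 UMIs makes Higd1b at least 314-fold lower in library 1 and at least 68.2-fold lower in library 2 than in stricter Rgs5-rich cells. Of 18 genes of the corneal stroma and sclera, none was higher and 11 were lower than in Chil1-rich cells, and none was higher and 10 were lower than in Dcn-rich fibroblasts (medians −2.32 and −2.55). The shares of all genes called lower were 3.14% against Chil1-rich cells and 2.63% against Dcn-rich fibroblasts. They were 1.76% against Rgs5-rich cells and 1.83% against the stricter class. Kera, the corneal proteoglycan keratocan, was at 0 UMIs in members and at 108 and 93.7 CPM in Dcn-rich fibroblasts, at least 51.4-fold and 22.8-fold lower in members. Lum, its relative lumican, stood at 791.5 and 764.5 in members and 2951 and 1855 in Dcn-rich fibroblasts, a difference that was not called (−1.57 ± 0.47; adjusted p = 0.0874).

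Collagen chains were called lower more than higher in the members. Of 25 collagen chains, 24 were tested; 1 was higher and 13 were lower than in Chil1-rich cells (median −2.02), 1 higher and 9 lower than in Dcn-rich fibroblasts (median −1.51), and 1 higher and 3 lower than in Rgs5-rich cells (median −0.90). Against cells without Lmx1b, Chodl or Nkain3 none was higher and 1 lower (median −0.42). Among all genes, 2.00% were higher and 3.14% lower than in Chil1-rich cells, and 1.84% and 2.63% than in Dcn-rich fibroblasts. The shares were 1.33% and 1.76% against Rgs5-rich cells and 0.0927% and 0.315% against cells without the 3 genes. Col1a1 stood at 1021 and 560 CPM in members, against 7883 and 7276 in Chil1-rich cells (−3.62 ± 0.60; adjusted p = 0.00451) and 10080 and 5586 in Dcn-rich fibroblasts (−3.37 ± 0.59; adjusted p = 0.00646). Its differences from Rgs5-rich cells (−1.12; adjusted p = 0.383) and from cells without the 3 genes (−0.76; adjusted p = 0.591) were not called. The single chain that was higher than in Chil1-rich cells, Rgs5-rich cells and Dcn-rich fibroblasts was Col23a1, a transmembrane collagen, at 415 and 401 in members, against 50.0 and 64.2 in Chil1-rich cells (2.62 ± 0.61; adjusted p = 0.0263) and 69.3 and 77.6 in Dcn-rich fibroblasts (2.41 ± 0.61; adjusted p = 0.0433). Of 39 genes of elastic fibres, microfibrils and matricellular proteins, 1 was higher and 14 were lower than in Chil1-rich cells (median −0.70), and 2 were higher and 13 lower than in Dcn-rich fibroblasts (median −1.35). Nid1, the basement membrane protein nidogen, was the one that was higher than in Chil1-rich cells, at 624 and 300.6 in members and 132 and 88.9 in those cells (1.77 ± 0.31; adjusted p = 0.00562). Thbs4, a thrombospondin of tendon and muscle attachments, stood at 5.58 and 6.86 in members and 572 and 703 in Chil1-rich cells (−6.99 ± 0.61; adjusted p = 0.000239).

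Wnt6 and Rspo3 were called higher in the members than in Chil1-rich cells, Rgs5-rich cells and Dcn-rich fibroblasts. Against cells without Lmx1b, Chodl or Nkain3, Rspo3 was called higher and Wnt6 was not called. Of 33 genes of TGF-beta, BMP and Wnt signalling, 30 were tested. Of these, 2 were higher and 4 lower than in Chil1-rich cells, 3 higher and none lower than in Rgs5-rich cells, and 3 higher and 3 lower than in Dcn-rich fibroblasts. The list medians were −0.49, −0.15 and 0.002. The shares of all genes called higher and lower were 2.00% and 3.14%, 1.33% and 1.76%, and 1.84% and 2.63% in that order. The ligand Wnt6 stood at 227 and 173 CPM in members, against 7.75 and 5.65 in Chil1-rich cells (log2 fold change 4.62 ± 0.45; adjusted p = 0.000358), 16.4 and 3.47 in Rgs5-rich cells (4.28; adjusted p = 0.000939) and 25.7 and 38.8 in Dcn-rich fibroblasts (2.58; adjusted p = 0.00352). Rspo3, a secreted amplifier of Wnt signalling, stood at 202 and 136, against 19.4 and 12.0 in Chil1-rich cells (3.20 ± 0.30; adjusted p = 0.000358), 32.8 and 19.7 in Rgs5-rich cells (2.66; adjusted p = 0.00119) and 21.01 and 17.2 in Dcn-rich fibroblasts (3.08; adjusted p = 0.00037). The Wnt antagonist Sfrp2 went the other way, at 58.6 and 45.3 in members, against 1050 and 445 in Chil1-rich cells (−4.00 ± 0.63; adjusted p = 0.00356) and 755 and 525 in Dcn-rich fibroblasts (−3.69 ± 0.63; adjusted p = 0.00532), while its difference from Rgs5-rich cells was not called (−1.53; adjusted p = 0.256). The Wnt target Axin2 was higher than in Rgs5-rich cells (2.33 ± 0.40; adjusted p = 0.00732), and its differences from Chil1-rich cells (1.03; adjusted p = 0.0842) and Dcn-rich fibroblasts (0.31; adjusted p = 0.729) were not called. Of 24 glaucoma-associated genes, 3 were higher (Cyp1b1, Gmds and Foxc1) and 4 lower (Myoc, Ltbp2, Svep1 and Loxl1) than in Chil1-rich cells (median 0.26).

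Cells that met the same contractile and stromal conditions but showed no UMI of Lmx1b, Chodl or Nkain3 differed from the members in 10 genes that were higher in members (0.0927%) and 34 that were lower (0.315%). At an unadjusted p under 0.05 there were 1471 genes, against 1541 for Rgs5-rich cells, and those cells were fewer (111 and 35) than Chil1-rich cells, Rgs5-rich cells or Dcn-rich fibroblasts. The cells without the 3 genes were also mixed by cluster. In library 1, 57 of the 111 fell into the cluster that held 182 of the 270 members, and 29 into the one with most Chil1-rich cells. Another 11 fell into a cluster with 9 pigmented contractile cells. In library 2 those counts were 2, 6 and 7 of 35, and 10 were in a cluster with 44 members. The comparison is therefore not of 1 cell type with and without the 3 genes. Lypd1 was among the higher genes, at 743 and 329 CPM in members and 173 and 39.6 in those cells (2.45 ± 0.43; adjusted p = 0.0435), as were Rspo3 (1.88 ± 0.30), Foxc1 (1.54 ± 0.28), Eya2 (1.35 ± 0.25) and Nid1 (1.62 ± 0.31). Procr, the endothelial protein C receptor, stood at 69.8 and 113.9 in members and 16.9 and 4.95 in those cells (2.85 ± 0.51; adjusted p = 0.0435). No gene of the muscle or actomyosin lists was called; Myh11 stood at 92.1 and 56.3 in members and 149 and 285 in those cells (−1.40 ± 0.59; adjusted p = 0.31). Spon1, a secreted matrix protein, was among the lower genes, at 13.96 and 8.24 in members and 106 and 186 in those cells (−3.46 ± 0.46; adjusted p = 0.031). So was Pax6, a factor of the ciliary and retinal epithelium, at 13.96 and 35.7 in members and 112 and 233 in those cells (−2.79; adjusted p = 0.031). The summed markers of other cells also differed in library 2: the rod list summed to 282 and 2700 in members and 201 and 20350 in those cells, and the pigment list to 2183 and 1101 in members and 3108 and 6970 in those cells. Their part in the calls was not tested. The adjusted p of the 44 calls lay between 0.031 and 0.0498, no gene was called without the library term, and with cells limited to 15% mitochondrial UMIs 0 genes were called higher and 3 lower.

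Library 2 members stood apart from library 1 members in their clusters. In library 1, 163 of 199 members fell into a cluster of 453 cells with Cxcl12, Lypd1 and Ifitm1 among its leading genes. In library 2, 19 of 71 members fell into that cluster, and 44 fell into a cluster of 254 cells, 249 of them from library 2, led by Ccl2, Myoc and Cxcl10. Within library 2 the 44 members had 972 CPM of the chemokine Ccl2, against 8.73 in the 19, while Lypd1 (359 and 445), Tfap2b (657 and 794) and Foxc1 (397 and 445) differed less between the 44 and the 19. The summed level of 18 genes that respond to tissue dissociation was 9756 in library 1 members and 28310 in library 2 members, and in Dcn-rich fibroblasts it was 9667 and 18520. No gene of that list was called against any of the 3 classes. The 18 members (14 and 4) that shared a cluster with most Chil1-rich cells were among its 481 cells. In library 1 those 14 members had 5885 CPM of Col1a1, 960 of Myoc and 12.3 of Lypd1, against 398, 79.8 and 876 in the 163 members of the leading cluster. In library 2 the 4 members had 2551 of Col1a1, 3255 of Myoc and 0 of Lypd1, against 707, 279 and 445 in the 19.

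**Figure D5:**
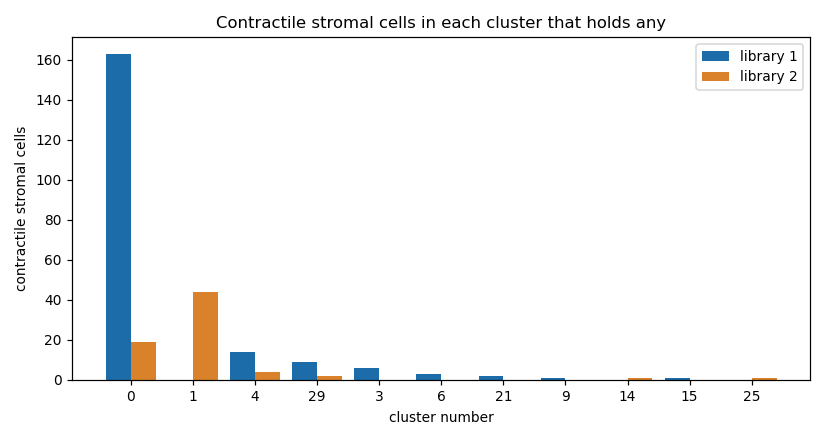
Number of contractile stromal cells in each cluster that holds any, by library, from a clustering of all cells without the selection genes. Cluster 0 held 163 members of library 1 and 19 of library 2, and cluster 1 held 44 members, all of library 2. Cluster 29, led by Myl9, Tpm2 and Myh11 with mural genes also among its leading genes, held 9 and 2.

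Markers of other cells were present in the members' sums. Rod genes summed to 282 and 2700 CPM in members and 553 and 7268 in Dcn-rich fibroblasts. Endothelial genes summed to 111 and 158 CPM in members and 113 and 162 in Dcn-rich fibroblasts, and Schwann cell genes to 357 and 351 in members and 190 and 137 in Dcn-rich fibroblasts. Pigment cell genes summed to 2183 and 1101 in members and 1125 and 1038 in Dcn-rich fibroblasts, and 6 members of library 1 in cluster 3 held 10950 CPM of the melanin enzyme gene Dct alone, at a median of 16730 UMIs per cell. No doublet caller was run; how far doublets or free RNA enter these sums was not tested beyond the alternative without the 5% of cells with the most UMIs.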

How the data were processed

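Single-cell suspensions of dissected eye tissue were made with collagenase for 20 min and DNase for 7 min and passed through a 40 µm strainer, per the labels' protocols. The authors deposited raw UMI counts per gene and barcode, made with Cell Ranger 3.1.0 per the file headers; CASAVA 1.8, Seurat and the mm10 (GRCm38) build are named in the submitters' processing notes. A second deposited matrix per library differed in 0 entries and was not used again. The filtered cells held 21019607 UMIs in library 1 and 29394468 in library 2.

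The members, the classes and the 18 gene lists were chosen with earlier results of these data known. Named genes were those with the largest fold changes per comparison, those higher than in 3 classes alike, and up to 4 called genes per list and direction, each with at least 30 UMIs in the higher class. Counts were summed per class and library, for classes of 10 cells or more. They were tested with edgeR 4.0.16 (R 4.3.3, TMM, quasi-likelihood F test, Benjamini-Hochberg adjustment), with a filter on low counts and the library as a replicate block. Fold changes of the test used edgeR's default prior count, and a prior count of 2 served only the log2 values of single libraries. The block was kept because class sums of the same number come from 1 suspension, a shared batch. All adjusted p-values in the text come from this edgeR test unless DESeq2 (1.42.0) is named. Detection shares were compared after thinning cells to 1500 UMIs, which left out 2 and 1 members. Clusters came from scanpy 1.11.5 (2000 variable genes, 30 principal components, 15 neighbours, Leiden resolution 1) without the selection genes. Strict CArG boxes were searched in RefSeq promoter windows. The test was checked on simulated counts of members against Chil1-rich cells, with 100 genes changed at each fold. It recovered 89% of 4-fold changes and 31% of 2-fold changes, and 8 of its 128 calls were unchanged genes. No doublet caller was run. The values of 1 gene are not reported here.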

Additional observations from a re-analysis of the deposited data

How the results depend on the processing

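Each pair of counts here gives genes higher, then lower, in contractile stromal cells, in the order Chil1-rich cells, Rgs5-rich cells, Dcn-rich fibroblasts and cells without Lmx1b, Chodl or Nkain3. With no replicate block, so that the pairing of class sums by library was ignored, edgeR called 17 and 32, 9 and 26, 13 and 41, and 0 and 0 genes; at an unadjusted p under 0.05 the last comparison had 1471 genes with the block, and DESeq2 called 37 and 110. With no filter on low counts the numbers were 347 and 679, 276 and 426, 367 and 606, and 163 and 394. With only the classes compared in the fit they were 442 and 766, 334 and 417, 453 and 641, and 99 lower in the last. Without the 5% of cells with the most UMIs, 533 genes were lower than in Chil1-rich cells, 310 lower than in Rgs5-rich cells and 5 higher than in cells without the 3 genes. Thinned cells left 113 genes higher than in Dcn-rich fibroblasts. Against cells without the 3 genes, a limit of 15% mitochondrial UMIs left 0 higher and 3 lower, and a minimum of 2 UMIs of the 3 genes gave 20 higher. The causes were not tested. The members' share became 6.54% and 1.99% with at least 1000 detected genes, and 3.29% and 0.933% with at least 2 UMIs of the 3 genes.

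Of 218 calls of named genes, 36 kept call and direction under every alternative tested, and 131 under all but the fit with no replicate block. RLE size factors lost 3 calls, DESeq2 16, leaving out the 11 members of the Myh11-led cluster 17, and thinning 24 of 153. Against the stricter Rgs5-rich cells, chosen after seeing the data, 11 log2 fold changes that were negative against Rgs5-rich cells became positive: Hhip 0.07, Chad 0.38, Nell2 3.70, Myoc 4.74, Angptl7 0.79, Aldh3a1 5.93, Pi16 7.94, Igfbp6 5.72, Col11a1 8.52, Ltbp4 3.26 and Lox 0.28. That class holds at most 1 Dcn UMI and no Chil1 per cell by its construction. It had 0 UMIs of Hhip, Nell2, Aldh3a1, Pi16 and Col11a1, whose log2 fold changes rest on edgeR's default prior count. Leaving out either library leaves 1 sum per class, so single-library values carry no test. With 2 pools and 71 members in library 2, low genes rest on few UMIs, and a gene that was not called is not shown to be alike.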

Other observations

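Glaucoma-associated genes were also compared with Rgs5-rich cells and Dcn-rich fibroblasts. Of 24 such genes, 1 was called higher and 1 lower than in Rgs5-rich cells (median −0.04), beside 1.33% and 1.76% of all genes. Against Dcn-rich fibroblasts 1 was higher and 2 lower (median 0.24), beside 1.84% and 2.63% of all genes. Counts this small are not read as a trait of the list. Gmds, a GDP-mannose dehydratase at a glaucoma risk locus beside Foxc1, stood at 190 and 141 CPM in contractile stromal cells, against 52.3 and 29.6 in Chil1-rich cells (log2 fold change 1.82 ± 0.34, SE; adjusted p = 0.00821 by edgeR's quasi-likelihood test). Cav1, the caveolar coat protein caveolin, stood at 110.3 and 139 CPM, against 43.7 and 15.04 in Rgs5-rich cells (2.17 ± 0.50; adjusted p = 0.0364). Ltbp2, a microfibril protein mutated in congenital glaucoma, stood at 41.9 and 26.1 CPM, against 330 and 202 in Chil1-rich cells (−3.20 ± 0.46; adjusted p = 0.00202). Efemp1, a fibulin, stood at 64.2 and 54.9 CPM, against 270 and 220 in Dcn-rich fibroblasts (−2.12 ± 0.33; adjusted p = 0.00337). Htr1b, a serotonin receptor, stood at 32.1 and 34.3 CPM, against 1.94 and 2.12 in Chil1-rich cells (3.84 ± 0.85; adjusted p = 0.0264).

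Members with and without an Lmx1b UMI are set side by side without a test, because detection depends on depth. In library 1 the 128 members with an Lmx1b UMI had 828 CPM of Lypd1 and 627 of Tfap2b, against 542 and 497.5 in the 71 without one. In library 2 the 57 members with an Lmx1b UMI had 339.5 and 617 CPM of these genes, against 237 and 627 in the 14 without one. Myh11 stood at 69.7 and 35.0 CPM in members with an Lmx1b UMI, against 145 and 250.7 in those without, and Col1a1 at 1276 and 557, against 423 and 585. The median depth was 5430 and 6988 UMIs in cells with an Lmx1b UMI and 4517 and 4572 in cells without.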
